A study of Mus musculus with 14 samples.

Results

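Gene expression was compared between common myeloid progenitors (CMP) and granulocyte-macrophage progenitors (GMP) sorted from wild-type (WT) mouse bone marrow. The arrays were chosen by title alone: the 2 named WT GMP were set against the 2 named WT CMP, 4 of the 14 arrays of the series, and every mouse probe set of these arrays was taken. Both populations came from bone marrow cells that lack lineage markers and Sca1 and carry c-Kit and CD34, and they were told apart by their Fc gamma receptor, low in CMP and high in GMP. The WT mice were Tet2+/+ and Mx+, littermates of the Tet2 knockout (KO) mice, on a B6/129 background, and pIC injection had been used for deletion. Mx names a promoter that answers to interferon and drives Cre recombinase in this kind of model, and pIC induces interferon, so on that reading of the labels the WT cells had met the injection and the recombinase too. The sort of CMP was at 4 weeks after deletion, and no time is given for GMP. From each sample 5 ng of total RNA was amplified and hybridised as biotin-labelled cDNA. The other 10 arrays held WT and KO LSK cells (lineage-negative, Sca1-positive and c-Kit-positive, where the blood stem cells are found), KO CMP, KO GMP and KO cells replated 5 times in culture, with 2 arrays each. Whether paired arrays stand for different mice is not stated, so a p here speaks of the spread between samples, which may be technical.

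A CMP can give rise to granulocytes, macrophages, red cells and platelets, and a GMP is its descendant that makes granulocytes and macrophages. The step is known for the rise of proteins stored in the primary granules, such as myeloperoxidase and the neutrophil serine proteases, under transcription factors of the C/EBP family, PU.1 and Gfi1. GATA factors with their partner Fog1 (Zfpm1) and Klf1 serve the erythroid and megakaryocyte branch that a GMP has left behind.

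The values are probe-set intensities on a linear scale, made by the authors with RMA, and were turned to log2 here. Probe sets for bacterial transcripts, which mouse RNA lacks, reached 22.1 to 26.9 on the 4 arrays, and the highest of them on each array was taken as its floor, close to which a value cannot be told from background. Of 18193 genes, each read from its brightest probe set, 12532 lay above the floor on at least 1 of the 4 arrays. Across probe sets, which are not independent replicates, Pearson's r of the log2 values was 0.9821 between the CMP arrays, 0.9799 between the GMP arrays and 0.97 to 0.9803 between a CMP and a GMP array. Of 11 measured markers of T, B, NK, mature myeloid and lymphoid progenitor cells 0 passed the test (limma, 3 at an unadjusted p below 0.05), 4 lay below the floor on all 4 arrays, and their summed intensity was 772 to 858 in CMP and 935 to 1069 in GMP. The T cell marker Cd3g, the NK marker Ncr1, the B cell marker Ms4a1 and the myeloid integrin gene Itgam were below the floor, the macrophage marker Adgre1 read 13.4 and 21.4 in CMP and 46.5 and 53.3 in GMP, while the B cell gene Cd79b read 639 and 556 in CMP and 727 and 832 in GMP. Of 9 stroma and vessel wall genes 0 passed (1 at an unadjusted p below 0.05), with sums of 428 to 487 in CMP and 267 to 360 in GMP, and Col1a1, Col3a1, Cdh5 and Lepr were below the floor on all 4. The stromal chemokine gene Cxcl12 read 81.6 and 63.4 in CMP and 33.7 and 23.1 in GMP, and Pecam1, which blood cells share with vessel walls, 259 and 216 in CMP and 204 and 129 in GMP.

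The genes of the sort gate were read as a check of the labels. Fcgr3, which encodes a low-affinity receptor for IgG, read 667 and 634 on the CMP arrays and 5002 and 4297 on the GMP arrays, a log2 difference of 2.83 ± 0.22 (GMP minus CMP, ± SE from limma, n = 2 arrays a group here and below, adjusted p = 0.00246). Fcgr2b, the inhibitory IgG receptor seen by the same antibody clone in common use, read 822 and 938 in CMP and 1777 and 1904 in GMP and did not pass (log2 difference 1.07 ± 0.21, adjusted p = 0.0943). Kit, the stem cell factor receptor, read 2061 and 2046 in CMP and 1471 and 1279 in GMP. Where values are joined by "against" here and below, the CMP arrays 1 and 2 come first and the GMP arrays 1 and 2 follow, so Cd34 read 4983 and 4921 against 3610.3 and 4301. Both Fc receptor genes were higher on each GMP array, and Kit and Cd34 were far above the floor in both populations. Ly6a, the gene of Sca1, had no probe set of its own here and was not analysed here.

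From CMP to GMP 54 genes rose and 55 fell at an adjusted p below 0.05 (limma over all 14 arrays, Benjamini-Hochberg over 45037 probe sets). That is 0.297% of the 18193 genes in one direction and 0.302% in the other. Over probe sets, 87 were higher and 98 lower, together 0.411% of those tested. The CMP and GMP arrays did not overlap for the 109 genes, which the test chose, nor for 43.3% of all genes. The risen genes include Elane and Ms4a3 of the granulocyte line, the myeloid receptors Clec4a2 and Trem3, the adhesion molecule Vcam1 and the membrane protein Prom1. The fallen genes include Dntt and Flt3, which mark lymphoid-primed progenitors, Selp, Plek and Angpt1 of the megakaryocyte line, and Mycn, Sox6 and Cd27. As fitted, the changes ran from 0.83 to 5.70 on the log2 scale for rises and from -0.82 to -5.94 for falls, and 30 rises and 20 falls were at least 2 on that scale. The median log2 difference of all genes was 0.03, and 10039 of 18193 were above 0. At an unadjusted p below 0.05, 4.86% of all genes were higher and 4.33% lower, the background for the same tally in each list below. In samples of whole populations, fewer cells of a kind and less RNA per cell cannot be told apart.

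The number of calls rests on the spread pooled over all 14 arrays. A fit of the 4 arrays alone called 0 probe sets, with 4300 at an unadjusted p below 0.05, and with 2 arrays a side an exact two-sided permutation test could not go below 0.333. Leaving out WT CMP 1, WT CMP 2, WT GMP 2, either KO GMP array or either replated array changed a gene count by over 1.5 times: the rises became 28, 17, 25, 35 and 25, and the falls became 27, 15, 13, 43 and 30. Of the 109 genes 17 passed without each of the 14 arrays in turn, and 0 of the 109 changed direction under any alternative. The 17 were Prom1, Vcam1, Clec4a2, Gda, Cldn15, Fcgr3, Ncmap, Trem3, Mgl2, Gstm1, Pilrb1, Cma1, Dstn and the unnamed transcript 4933440M02Rik among the rises, and Camk1d, Tmem231 and Ctla2a among the falls. Each of the other 92 lost its call without at least 1 array. The 109 genes had 132 further probe sets: 30 were below the floor on all 4 arrays, 67 more had the gene's direction at an unadjusted p below 0.05, 0 had the opposite direction at that p, and 35 had neither.

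The largest rise was that of Prom1, the gene of the membrane protein prominin 1 (CD133). It read 52.5 and 29.7 on the CMP arrays and 2037 and 2068 on the GMP arrays, a log2 difference of 5.70 ± 0.58 (adjusted p = 0.0062), or 52.0-fold. The CMP arrays were close to the floor and the GMP arrays almost equal. Vcam1, an adhesion molecule that binds the integrin VLA4, read 52.4 and 44.1 in CMP and 969 and 772 in GMP (log2 difference 4.17 ± 0.32, adjusted p = 0.00246). Clec4a2, a C-type lectin receptor of myeloid cells with an inhibitory motif, read 29.1 and 35.5 against 496 and 442 (log2 difference 3.86 ± 0.31, adjusted p = 0.00261). In both the GMP arrays stood more than 10-fold above the CMP arrays. Gda, the guanine deaminase, read 254 and 279 in CMP and 2137 and 2103 in GMP (log2 difference 2.99 ± 0.30, adjusted p = 0.00566). Cldn15, a claudin, read 67.7 and 60.2 against 427 and 520.1 (log2 difference 2.88 ± 0.24, adjusted p = 0.00304). These 5 genes, with Fcgr3, kept their calls without each array.

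Other genes among the 12 largest rises encode enzymes of sulfate, steroid and lipid metabolism. Chst13, a sulfotransferase that acts on chondroitin, read 154 and 57.1 in CMP and 1064 and 1433 in GMP (log2 difference 3.72 ± 0.49, adjusted p = 0.0179). Hsd11b1, which turns inactive into active glucocorticoid, read 147 and 131 against 1591 and 1554 (log2 difference 3.50 ± 0.54, adjusted p = 0.034). Sgms2, a sphingomyelin synthase, read 284 and 233 against 2374 and 2592 (log2 difference 3.27 ± 0.51, adjusted p = 0.0374). For each of these the groups were apart by several fold, and the widest spread was that of Chst13 in CMP. Dmkn, the secreted protein dermokine, had a log2 difference of 3.39 ± 0.50 and Enah, an actin regulator, one of 3.23 ± 0.46, with 1 of the CMP arrays of Enah below the floor. Chst13 lost its call without WT CMP 2 or WT GMP 2 (adjusted p 0.0646 to 0.101), Enah without WT CMP 2, either GMP array or either replated array (0.0528 to 0.129), Dmkn without any of the 4 arrays or either replated array (0.0699 to 0.124), and Hsd11b1 and Sgms2 also without either KO GMP array (up to 0.186 and 0.206). The gene next to Hsd11b1 among the measured genes in RefSeq order is G0s2, an inhibitor of the fat-cleaving enzyme ATGL, and these were the only 2 called genes that stood next to each other. G0s2, picked after its values were seen, read 25.3 and 36.0 in CMP and 161 and 247 in GMP (log2 difference 2.73 ± 0.43, adjusted p = 0.0379), and lost its call without any 1 of the CMP, GMP or replated arrays (0.0503 to 0.197).

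**Figure D1:**
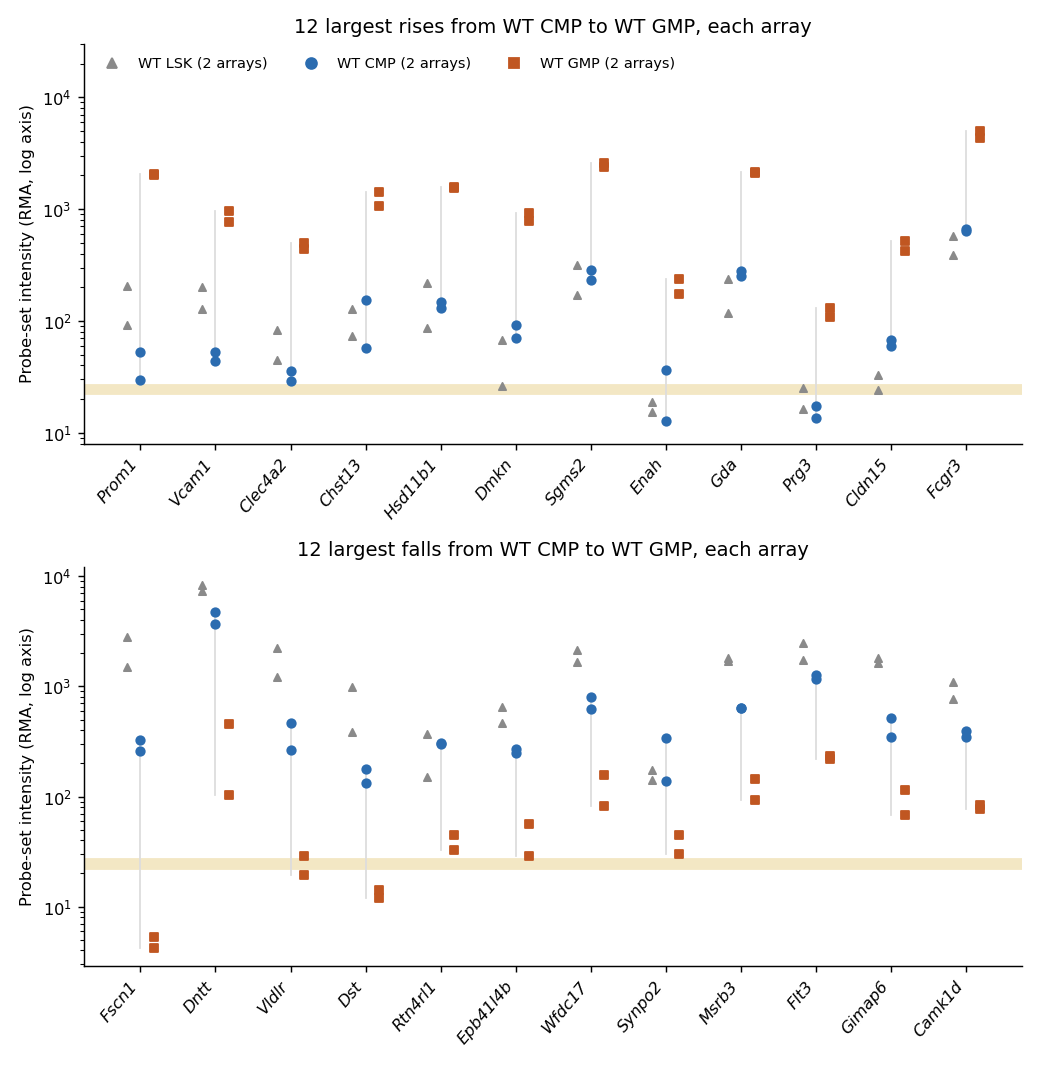
Intensity of each array on a log axis for the 12 largest rises (top) and the 12 largest falls (bottom) by fitted log2 difference from WT CMP (circles) to WT GMP (squares), with WT LSK (triangles). The shaded band spans the floors of the 4 arrays, 22.1 to 26.9. All 24 genes were chosen among those whose arrays do not overlap, so the GMP squares stand apart from the CMP circles by selection. For Fscn1 and Dst both squares lie below the band.

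Primary granules are the first granules a granulocyte precursor makes. Of 17 measured genes on a list for primary granules and the cells that make them 3 rose and 0 fell, beside 0.297% and 0.302% of all genes. The list is wider than granule proteins: Ms4a3 is a membrane protein and Gstm1 a glutathione transferase that is counted again below. All 17 log2 differences were above 0 with a median of 0.52 (0.03 over all genes), and 10 had an unadjusted p below 0.05, beside 4.86% of all genes in that direction. Elane, neutrophil elastase, read 2821 and 2660.0 in CMP and 7528 and 7634 in GMP, a log2 difference of 1.47 ± 0.16 (adjusted p = 0.00937). Ms4a3, a membrane-spanning protein of granulocyte-macrophage progenitors, read 4055 and 4051 against 8339 and 9311 (log2 difference 1.12 ± 0.14, adjusted p = 0.016). Gstm1, a glutathione transferase, read 898 and 835 against 3819 and 3477 (log2 difference 2.07 ± 0.13, adjusted p = 0.000769), the lowest adjusted p of the genes named here. In each of the 3 the arrays of a population differed from each other far less than from the other population. Gstm1 passed without each array, while Elane lost its call without WT CMP 2 or WT GMP 2 (adjusted p 0.0593 to 0.0637) and Ms4a3 without WT CMP 1, WT CMP 2 or WT GMP 2 (0.0727 to 0.0904).

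The best known granule genes were already bright in CMP. Mpo, myeloperoxidase, read 10549.7 and 10479 in CMP and 12628 and 12139 in GMP and did not pass (log2 difference 0.24 ± 0.11, adjusted p = 0.654). Ctsg, cathepsin G, read 8175 and 7798 against 11227 and 11109 (log2 difference 0.48 ± 0.20, adjusted p = 0.562). Prtn3, proteinase 3, read 4360.3 and 4101 against 8250.4 and 8555 (log2 difference 0.99 ± 0.26, adjusted p = 0.23), so both GMP arrays were near 2-fold above both CMP arrays without passing. In LSK cells the same probe sets read 6472 and 7049 for Mpo, 2226 and 3491 for Ctsg, 1591 and 2479 for Prtn3 and 1279 and 1158 for Elane, below CMP in each case. The smallest differences of the list were those of the lysozymes Lyz1 (0.00) and Lyz2 (0.03) and of the chaperone Calr (0.04). For all 3 lysozyme and chaperone genes the populations overlapped.

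Elane and Prtn3 are neighbours in RefSeq order. Their promoters, and those of a pair of further risen genes and a pair of fallen ones, are printed to show which short motifs of blood transcription factors lie there. Each run is the 250 bases before the start site in RefSeq (GRCm38.p6), 5′ to 3′ on the gene's strand, and capitals mark the motifs, which were searched on both strands. The PU.1 motif was GAGGAA, which some ETS relatives also bind. For RUNX it was TGTGGT. For GATA factors either AGATAA or a run with T in place of the first base was taken. The C/EBP motif was TTGCNNAA and the KLF motif CCNCNCCC.
Elane, chr10:79886062-79886311, plus strand: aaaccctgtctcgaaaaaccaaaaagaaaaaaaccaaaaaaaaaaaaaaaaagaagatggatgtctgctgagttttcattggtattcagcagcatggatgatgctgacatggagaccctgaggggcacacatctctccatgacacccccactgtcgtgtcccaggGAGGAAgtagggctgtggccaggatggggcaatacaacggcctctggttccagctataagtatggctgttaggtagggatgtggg
Prtn3, chr10:79879417-79879666, plus strand: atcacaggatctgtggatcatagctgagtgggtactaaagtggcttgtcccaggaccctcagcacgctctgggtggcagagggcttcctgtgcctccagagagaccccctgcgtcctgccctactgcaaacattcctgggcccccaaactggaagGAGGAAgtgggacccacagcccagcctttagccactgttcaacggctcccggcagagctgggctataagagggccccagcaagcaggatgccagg
Clec5a, chr6:40585806-40586055, minus strand: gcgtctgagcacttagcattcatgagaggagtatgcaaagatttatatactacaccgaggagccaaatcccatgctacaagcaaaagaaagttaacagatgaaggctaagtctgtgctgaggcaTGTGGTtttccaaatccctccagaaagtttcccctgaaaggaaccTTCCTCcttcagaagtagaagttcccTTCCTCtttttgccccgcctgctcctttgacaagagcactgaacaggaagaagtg
Gda, chr19:21472662-21472911, minus strand: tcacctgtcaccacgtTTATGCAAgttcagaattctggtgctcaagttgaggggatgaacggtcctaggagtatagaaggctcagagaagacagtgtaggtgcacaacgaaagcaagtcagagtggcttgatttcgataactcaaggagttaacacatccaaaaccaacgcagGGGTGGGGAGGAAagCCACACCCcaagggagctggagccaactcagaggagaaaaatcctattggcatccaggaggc
Dntt, chr19:41029025-41029274, plus strand: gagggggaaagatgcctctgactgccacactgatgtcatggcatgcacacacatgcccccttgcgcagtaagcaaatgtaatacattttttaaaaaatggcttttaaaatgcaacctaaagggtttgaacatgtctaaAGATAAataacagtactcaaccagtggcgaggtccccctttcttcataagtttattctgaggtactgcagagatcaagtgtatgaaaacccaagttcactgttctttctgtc
Flt3, chr5:147400490-147400739, minus strand: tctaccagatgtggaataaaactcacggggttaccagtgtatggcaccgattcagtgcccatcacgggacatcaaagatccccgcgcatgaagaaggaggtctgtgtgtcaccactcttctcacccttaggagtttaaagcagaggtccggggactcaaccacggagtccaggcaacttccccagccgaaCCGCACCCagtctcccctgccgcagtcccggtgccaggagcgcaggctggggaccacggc
Elane and Prtn3 each hold 1 PU.1 motif, which begins 85 bases before the start in Elane and 95 before it in Prtn3. Clec5a holds 2 PU.1 motifs and 1 RUNX motif. Gda holds 1 C/EBP motif, 1 PU.1 motif, and KLF motifs that begin 77 and 62 bases before the start. The PU.1 motif overlaps the first of these KLF motifs by 1 base. Dntt holds 1 GATA motif and Flt3 1 KLF motif.

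Of the 54 risen genes 48 had promoters in the table, 70 in all, and of the 55 fallen genes 44, with 66. The PU.1 motif was in 31.4% of the promoters of risen genes, 21.2% of those of fallen genes and 23.25% of all 32851 promoters. The C/EBP motif was in 18.6%, 7.58% and 9.56%, and the RUNX motif in 20.0%, 9.09% and 14.04%. The GATA motif was in 10.0%, 12.1% and 16.6%, and the KLF motif in 61.4%, 57.6% and 45.9%. Promoters of 1 gene can overlap, so the 13 promoters of risen genes with a C/EBP motif belong to 9 genes and the 22 with a PU.1 motif to 21. Among promoters of measured genes the shares were 22.8% for PU.1, 8.34% for C/EBP, 11.7% for RUNX, 11.8% for GATA and 58.8% for KLF. No binding was measured here.

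Secondary and tertiary granules are filled later, as neutrophils ripen. Of 17 measured late neutrophil genes 1 rose and 0 fell, beside 0.297% and 0.302% of all genes. Their median log2 difference was -0.30, and 6 were above 0. Without adjustment 2 were higher and 1 lower at a limma p below 0.05, beside 4.86% and 4.33% of all genes. The one that rose was Anxa1, annexin A1, which read 2449.5 and 2351 in CMP and 4449 and 4338 in GMP (log2 difference 0.87 ± 0.13, adjusted p = 0.0281), and it lost the call without any of the 4 arrays, a KO GMP array or a replated array (0.0586 to 0.166). Lactoferrin (Ltf) read 371 and 211 against 132 and 275, with overlap, and the antimicrobial peptide gene Camp 1589.7 and 748 against 1227 and 1078. Pglyrp1, a peptidoglycan recognition protein stored in neutrophil granules that is on no list here, rose from 221 and 209 to 1106 and 1122 (log2 difference 2.37 ± 0.28, adjusted p = 0.0132), without the call when WT CMP 1, WT CMP 2 or WT GMP 2 was left out (0.0566 to 0.0728). It was picked after its values were seen.

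Of 24 genes of mast cells, basophils and eosinophils 2 rose and 0 fell, beside 0.297% and 0.302% of all genes. By limma 6 were higher and 2 lower at an unadjusted p below 0.05, beside 4.86% and 4.33% of all genes. Their median log2 difference was 0.11, and 8 of the genes lay below the floor on all 4 arrays. Prg3, an eosinophil granule protein, read 13.6 and 17.2 in CMP, below the floor, and 108 and 129 in GMP, so it was at least 4.84-fold higher (log2 difference as fitted 2.95 ± 0.32, adjusted p = 0.00902). Cma1, a mast cell chymase, read 16.8 and 18.5 against 64.3 and 50.9 and was at least 2.34-fold higher (adjusted p = 0.00833). Both GMP arrays were above the floor in each. The related eosinophil genes Prg2 (9.78 and 93.9 in CMP and 514 and 341 in GMP) and Epx (18.2 and 21.5 against 69.6 and 56.4) did not pass, with log2 differences of 3.79 and 1.66. Mcpt1, Mcpt2, Mcpt4 and Tpsab1, which mark mature mast cells, lay below the floor on every array of the comparison. Cma1 passed without each array and Prg3 lost its call without WT GMP 2 (adjusted p = 0.0593).

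Receptors by which myeloid cells sense microbes were among the risen genes. Of 21 measured pattern recognition genes 2 rose and 0 fell, beside 0.297% and 0.302% of all genes. Their median log2 difference was 0.35, and 17 were above 0. By limma 7 were higher and 2 lower at an unadjusted p below 0.05, beside 4.86% and 4.33% of all genes. Trem3, an activating receptor of myeloid cells, read 418 and 429 in CMP and 2371 and 2609.9 in GMP (log2 difference 2.56 ± 0.25, adjusted p = 0.00566). Clec5a, a C-type lectin receptor that signals through DAP12, read 93.4 and 123 against 562 and 516 (log2 difference 2.33 ± 0.38, adjusted p = 0.0448). Their signalling partner Tyrobp, the gene of DAP12, was bright in both populations and did not pass (2751 and 3041 in CMP and 3437 and 3955 in GMP). Tlr4, the receptor for endotoxin, read 118 and 228 against 409 and 513 with a log2 difference of 1.48 that did not pass, and Tlr7, a sensor of single-stranded RNA, read 171 and 209 against 49.9 and 23.0 with one of -2.48. Trem3 passed without each array, while Clec5a did not pass without any of the 4 arrays, a KO GMP array or a replated array (adjusted p 0.0776 to 0.173).

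Of 8 Fc receptor genes 1 rose, the gate gene Fcgr3, and 0 fell, beside 0.297% and 0.302% of all genes. Without adjustment 3 were higher and 0 lower at a limma p below 0.05, beside 4.86% and 4.33% of all genes. Fcgr4, the neighbour of Fcgr3 on the chromosome in RefSeq order, read 55.9 and 42.1 in CMP and 180.3 and 299.5 in GMP (log2 difference 2.26 ± 0.43, adjusted p = 0.075) and did not pass. Fcer1g, the signalling chain that these receptors share, read 2772 and 2645 against 2787 and 2993. The sort selected on the Fc gamma receptor, so the rise of Fcgr3 cannot be set apart from the gate. The shared chain was bright throughout.

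The phagocyte NADPH oxidase makes superoxide, and the proton channel Hvcn1 balances its charge. Of 6 measured genes 1 rose and 0 fell, beside 0.297% and 0.302% of all genes, and all 6 log2 differences were above 0 with a median of 0.86. By limma 4 were higher and 0 lower at an unadjusted p below 0.05, beside 4.86% and 4.33% of all genes. Hvcn1 read 127 and 137 in CMP and 442 and 743 in GMP (log2 difference 2.12 ± 0.29, adjusted p = 0.0216), and lost its call without WT CMP 1, WT CMP 2, WT GMP 2 or either replated array (0.0574 to 0.104). The catalytic subunit Cybb read 276 and 166 against 685 and 585 and its membrane partner Cyba 959 and 848 against 1716 and 2009. The cytosolic subunits Ncf4 (0.66) and Ncf1 (0.69) and the GTPase Rac2 (0.25) had smaller log2 differences. None of these 5 passed.

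Glutathione transferases detoxify reactive compounds. Of 22 measured genes of this superfamily, gathered by symbol after the values were seen, 2 rose and 0 fell, beside 0.297% and 0.302% of all genes. Above 0 were 15 log2 differences, beside 10039 of 18193 for all genes, with a median of 0.24. At an unadjusted limma p below 0.05, 7 were higher and 0 lower, beside 4.86% and 4.33% of all genes. The Clec family (26 genes, 2 rose) and the Ms4a family (17 genes, 1 rose), gathered in the same way, had medians of 0.02 and 0.05. Beside Gstm1 the other transferase that rose was Mgst1, a microsomal enzyme. It read 1689.9 and 1572 in CMP and 2737 and 3433 in GMP (log2 difference 0.91 ± 0.15, adjusted p = 0.0493). Mgst2, which can also make leukotriene C4, read 97.6 and 100.1 against 723 and 872 without passing (adjusted p = 0.0796). Gstp1, a cytosolic member, read 2949.6 and 2878 against 2846 and 3178. Mgst1 kept its call only without WT GMP 1, and without any other single array its adjusted p was 0.064 to 0.269. Gstm1 has close relatives, so its value is uncertain where probes are shared.

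The endoplasmic reticulum takes up and folds proteins bound for granules and the cell surface. Of 35 measured genes for this work 0 passed in either direction (limma), yet all 35 log2 differences were above 0, with a median of 0.35 against 0.03 over all genes, and 15 had an unadjusted p below 0.05, beside 4.86% of all genes in that direction. Creld2, an ER protein of the stress response, read 344 and 402 in CMP and 948 and 879.5 in GMP (log2 difference 1.30 ± 0.30, adjusted p = 0.151). Sdf2l1, an ER chaperone partner, read 1267 and 1238 against 2957 and 3313 (log2 difference 1.32 ± 0.36). Xbp1, the transcription factor that widens secretory capacity, read 531 and 545 against 793 and 999 (log2 difference 0.73 ± 0.19, adjusted p = 0.22). In these 3 both GMP arrays lay above both CMP arrays. The chaperone Hspa5 (BiP) differed by 0.47, the disulfide isomerase Pdia6 by 0.76 and the translocon subunit Sec61a1 by 0.37 on the log2 scale. The list shares Calr with the granule list. Fkbp11, a prolyl isomerase of the secretory path on no list, did pass (139 and 104 in CMP, 558 and 600.0 in GMP, log2 difference 2.27 ± 0.24, adjusted p = 0.00833), though not without WT CMP 2 or WT GMP 2 (0.0527 to 0.0546), and was picked after its values were seen.

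Further called genes, picked after their values were seen, round off the risen side. Papss2, which makes the activated sulfate that sulfotransferases such as Chst13 use, read 594 and 490.4 in CMP and 2052 and 1967 in GMP (log2 difference 1.90 ± 0.20, adjusted p = 0.00733). Mgl2, a galactose-binding lectin of macrophages and dendritic cells, read 24.96 and 22.5, near the floor, against 106 and 127 (log2 difference 2.29 ± 0.23, adjusted p = 0.00566). Ltb4r1, the high-affinity receptor for leukotriene B4, read 148 and 157 against 468 and 633 (log2 difference 1.84 ± 0.23, adjusted p = 0.0147). Vegfa, a growth factor of blood vessels, read 54.1 and 35.4 against 128 and 155 (log2 difference 1.68 ± 0.24, adjusted p = 0.0248), and Hnmt, which inactivates histamine, 137 and 143 against 383 and 802 (log2 difference 1.99 ± 0.31, adjusted p = 0.038). In each of these 5 both GMP arrays were above both CMP arrays. Mgl2 passed without each array. Papss2 lost its call without WT CMP 2 (adjusted p = 0.0503), Ltb4r1 without WT CMP 1, WT CMP 2 or WT GMP 2 (up to 0.0771), and Vegfa without WT CMP 2, either GMP array or a replated array (up to 0.134). Hnmt lost it without WT CMP 1, WT CMP 2, WT GMP 2 or any KO GMP, WT LSK or replated array (up to 0.176).

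**Figure D2:**
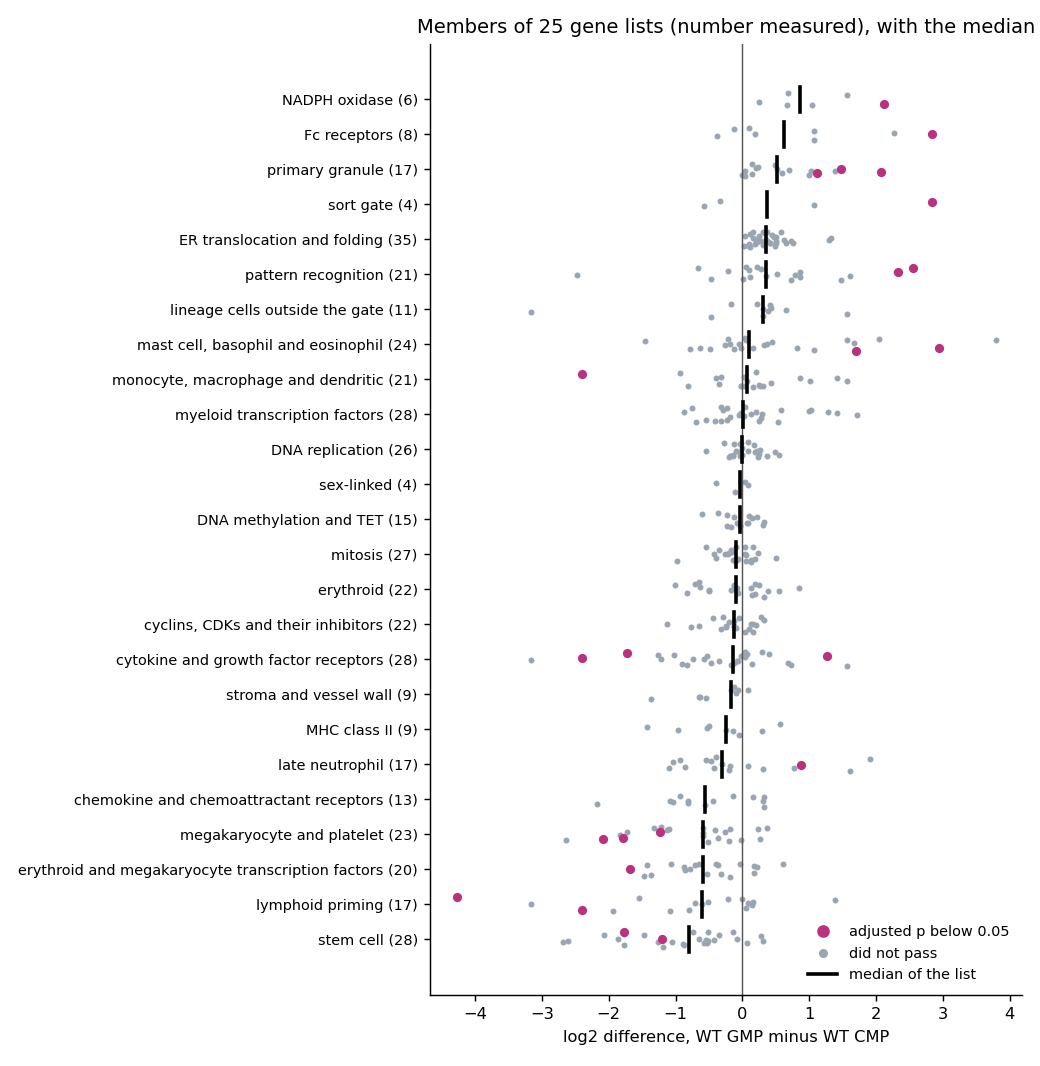
Log2 difference (WT GMP minus WT CMP) of each measured member of 25 gene lists, ordered by the median (black bar). Pink points passed at an adjusted p below 0.05 and grey points did not. All 17 genes of the primary granule list and all 35 ER genes lie above 0, while 25 of 28 stem cell genes and 20 of 23 megakaryocyte genes lie below 0.

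Dntt and Flt3 are the fallen genes of lymphoid priming. Lymphoid-primed progenitors carry Flt3 and start to express genes of antigen receptor rearrangement. Of 17 measured genes 2 fell and 0 rose, beside 0.302% and 0.297% of all genes. Their median log2 difference was -0.61, and 12 were below 0. Without adjustment 1 was higher and 9 lower at a limma p below 0.05, beside 4.86% and 4.33% of all genes. Dntt, terminal deoxynucleotidyl transferase, which adds bases where antigen receptor genes are joined, read 4726 and 3693 in CMP and 460.3 and 102 in GMP, a log2 difference of -4.27 ± 0.54 (adjusted p = 0.0166). Its other 2 probe sets fell as well, with log2 differences of -5.21 and -4.34. Flt3, the receptor tyrosine kinase, read 1264 and 1159.7 against 235 and 221 (log2 difference -2.41 ± 0.28, adjusted p = 0.0108), and the GMP arrays were nearly equal while those of Dntt differed several fold. Il7r, the interleukin 7 receptor, read 47.3 and 66.7 in CMP and 5.61 and 7.04 in GMP, below the floor, and did not pass (adjusted p = 0.206). The recombinase gene Rag1 was at or near the floor (13.4 and 16.7 against 26.5 and 9.18). In LSK cells Dntt read 8398 and 7406 and Flt3 2499.6 and 1745, above CMP. Dntt lost its call without either CMP array (0.071 to 0.0802) and Flt3 without WT CMP 1, WT CMP 2 or WT GMP 2 (0.0566 to 0.0682).

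The Gimap genes encode GTPases of lymphocyte survival and lie in a cluster. Of 8 measured, gathered by symbol after the values were seen, 2 fell and 0 rose, beside 0.302% and 0.297% of all genes. Below 0 were 7 log2 differences, beside 8154 of 18193 for all genes, with a median of -1.01. At an unadjusted limma p below 0.05, 0 were higher and 5 lower, beside 4.86% and 4.33% of all genes. Gimap6 read 518 and 351 in CMP and 114 and 68.0 in GMP (log2 difference -2.27 ± 0.28, adjusted p = 0.015). Gimap8 read 199.7 and 132 against 39.5 and 53.9 (log2 difference -1.81 ± 0.29, adjusted p = 0.0432). In LSK cells they read 1632 and 1814 and 1638 and 1122, so the order of levels was LSK, CMP, GMP in both, with no overlap. Gimap9 read 692 and 759 against 435 and 413 and Gimap1 142 and 90.6 against 61.1 and 37.6 without passing, and Gimap3 was below the floor. Gimap6 did not pass without WT CMP 1 or WT GMP 2 (0.0666 to 0.0682), and Gimap8 passed without a WT LSK array but without no other (0.05 to 0.163).

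Fscn1, the actin-bundling protein fascin, had the lowest fitted difference, though the bound on its fold is smaller than the measured 19.2-fold of Dntt. It read 325 and 258 in CMP and 5.28 and 4.21 in GMP, below the floor, and was at least 12.4-fold lower (log2 difference as fitted -5.94 ± 0.71, adjusted p = 0.0125). Its other 3 probe sets, which were much dimmer, did not show this and had log2 differences of -0.05, -0.47 and 0.02. In LSK cells the first probe set read 2785 and 1493. Vldlr, a lipoprotein and reelin receptor, read 266 and 465 in CMP and 19.5 and 29.0 in GMP (log2 difference -3.89 ± 0.50, adjusted p = 0.0172), and its other 5 probe sets had log2 differences from -0.99 to -3.43. Dst, the cytolinker dystonin, read 176 and 134 in CMP and 14.03 and 11.9 in GMP, below the floor, and was at least 6.59-fold lower (adjusted p = 0.0172). The other probe sets of Dst, below the floor in both populations, had log2 differences of 0.24, 0.19 and -0.03. Fscn1 did not pass without WT CMP 1, WT CMP 2 or WT GMP 2 (0.0596 to 0.0752), Vldlr without WT CMP 2 or either GMP array (0.0639 to 0.0983), and Dst without any of the 4 arrays (0.0516 to 0.0929).

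Camk1d, a calcium and calmodulin-dependent kinase, was the one of the 12 largest falls that passed without each array. It read 392 and 349 in CMP and 76.7 and 83.9 in GMP (log2 difference -2.20 ± 0.23, adjusted p = 0.00789). Msrb3, a methionine sulfoxide reductase, read 632 and 643 against 92.8 and 145 (log2 difference -2.46 ± 0.33, adjusted p = 0.0197). Wfdc17, a small secreted protein, read 627 and 803 against 82.2 and 158 (log2 difference -2.64 ± 0.33, adjusted p = 0.0157). For all 3 the LSK arrays were above the CMP arrays, at 1092 and 771, 1812 and 1706 and 1651 and 2147. Rtn4rl1, a relative of the Nogo receptor, had a log2 difference of -2.98 ± 0.41, the membrane skeleton protein Epb41l4b -2.69 ± 0.33, and the actin-binding protein Synpo2 -2.58 ± 0.41. Wfdc17 did not pass without WT CMP 2 (adjusted p = 0.0919), Epb41l4b without either CMP array (up to 0.071), Msrb3 without either CMP array, WT GMP 1 or a replated array (up to 0.11), Rtn4rl1 without any of the 4 arrays or a replated array (up to 0.122), and Synpo2 without WT CMP 2 or any GMP, LSK or replated array (up to 0.207).

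A pair of smaller falls, picked after their values were seen, passed without each array as well. Ctla2a, an inhibitor of cathepsin-like proteases, read 3235 and 3142 in CMP and 1151 and 1257 in GMP (log2 difference -1.41 ± 0.13, adjusted p = 0.00509). Tmem231, a protein of the base of the cilium, read 167 and 161 against 54.2 and 52.8 (log2 difference -1.62 ± 0.17, adjusted p = 0.00789). Both were lower on each GMP array than on each CMP array.

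Of 23 measured genes of megakaryocytes and platelets 3 fell and 0 rose, beside 0.302% and 0.297% of all genes. Below 0 were 20 log2 differences, beside 8154 of 18193 for all genes. Of the 20, 11 had an unadjusted limma p below 0.05 (beside 4.33% of all genes), and the median of the list was -0.58. Selp, P-selectin, an adhesion molecule of platelet granules, read 554 and 429.9 in CMP and 153 and 86.0 in GMP (log2 difference -2.09 ± 0.28, adjusted p = 0.0181). Angpt1, angiopoietin 1, a ligand of the receptor Tie2, read 2264 and 2063 against 733 and 535 (log2 difference -1.79 ± 0.22, adjusted p = 0.0152). Plek, pleckstrin, a main substrate of protein kinase C in platelets, read 1792 and 1783 against 789 and 739 (log2 difference -1.23 ± 0.19, adjusted p = 0.0326). The GMP arrays of all 3 were below the CMP arrays and still above the floor. Gp5, a subunit of the von Willebrand factor receptor, had the largest difference of the list but did not pass (351 and 559 in CMP and 59.9 and 84.7 in GMP, log2 difference -2.64 ± 0.52, adjusted p = 0.0879). Pf4, platelet factor 4, read 1945 and 2021 against 1318 and 1329 and Itga2b, the integrin CD41, 417 and 431 against 267 and 296. Selp and Angpt1 lost their calls without WT CMP 1, WT CMP 2 or WT GMP 2 (0.0636 to 0.0908 and 0.0696 to 0.0771), and Plek without any of the 4 arrays, a KO CMP array or a replated array (0.0502 to 0.162).

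Of 20 measured transcription factors of the erythroid and megakaryocyte branch 1 fell and 0 rose, beside 0.302% and 0.297% of all genes. Below 0 were 16 log2 differences, beside 8154 of 18193 for all genes. Of the 16, 11 had an unadjusted limma p below 0.05 (beside 4.33% of all genes), and the median of the list was -0.59. Sox6, which silences embryonic globin in red cells, read 237 and 236 in CMP and 85.0 and 64.1 in GMP (log2 difference -1.68 ± 0.23, adjusted p = 0.0188). Of its other probe sets -2.02 and -2.04 were the log2 differences of a pair that fell too, and one near the floor differed by 0.02. Gata2, a factor of stem and early progenitor cells, read 6666 and 7621 against 4168 and 4111 with an adjusted p just above the threshold (log2 difference -0.78 ± 0.14, adjusted p = 0.058). Gata1, the master factor of the branch, read 1837 and 1989 against 849.9 and 563 (log2 difference -1.47 ± 0.60, adjusted p = 0.543), so the RNA was still well above the floor in GMP. Zfpm1, the partner Fog1, read 89.9 and 81.8 against 31.7 and 34.7 (log2 difference -1.37 ± 0.35, adjusted p = 0.204). Its other probe set did not show this and overlapped (63.3 and 66.9 against 51.4 and 73.0, log2 difference -0.09). Klf1 read 341 and 330.4 against 175 and 194 (log2 difference -0.86 ± 0.52, adjusted p = 0.773). Gfi1b, the relative of Gfi1 in this branch, read 265 and 322 against 125 and 94.2 (log2 difference -1.43 ± 0.25). Sox6 lost its call without WT CMP 1, WT CMP 2 or WT GMP 2 (0.0877 to 0.105).

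Red cell genes that act downstream of these factors gave 0 calls among 22 measured (limma). At 0.297% and 0.302% of all genes called, a list of this length would hold about none. Without adjustment 1 was higher and 4 lower at a p below 0.05 (4.55% and 18.2%), beside 4.86% and 4.33% of all genes. The median log2 difference was -0.10, and 13 were below 0. Car2, a carbonic anhydrase, read 6406 and 6231 in CMP and 4250.1 and 3851 in GMP (log2 difference -0.64 ± 0.15, adjusted p = 0.164). Epor, the erythropoietin receptor, read 28.6 and 32.8 against 20.2 and 14.8, close to the floor or below it. Tfrc, the transferrin receptor, was higher in GMP (2139 and 2847 against 4212 and 4713) with a log2 difference of 0.85 that did not pass. The globin gene Hba-a1 and the heme enzyme gene Alas2 lay below the floor on all 4 arrays.

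Of 28 measured stem cell genes 2 fell and 0 rose, beside 0.302% and 0.297% of all genes. Below 0 were 25 log2 differences, beside 8154 of 18193 for all genes. Of the 25, 15 had an unadjusted limma p below 0.05 (beside 4.33% of all genes), and the median of the list was -0.80. Mycn, a relative of Myc, read 1387 and 1319 in CMP and 524 and 297 in GMP (log2 difference -1.78 ± 0.27, adjusted p = 0.0326). Its other probe sets, which were much dimmer, did not show this and had log2 differences of -0.30 and 0.26. Cd27, a receptor of the TNF family, read 1606 and 1503 against 659 and 684 (log2 difference -1.21 ± 0.15, adjusted p = 0.016). Mecom, the factor Evi1, read 1122 and 835 against 353 and 63.8 (log2 difference -2.69 ± 0.64) and Meis1, a cofactor of Hox proteins, 210.1 and 194 against 105 and 10.4 (log2 difference -2.61 ± 0.80, adjusted p = 0.327). In both the GMP arrays differed several fold from each other, and neither passed. Hoxa9 read 864 and 614 against 686 and 694, with overlap (log2 difference -0.08 ± 0.21, adjusted p = 0.987), while Hoxa10 read 747 and 739 against 256 and 164. Cd27 lost its call without any of the 4 arrays (0.0584 to 0.0804), and Mycn without WT CMP 1, WT CMP 2, WT GMP 2, a KO GMP or a replated array (0.0598 to 0.147).

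Of 28 measured receptors for cytokines and growth factors 1 rose and 2 fell, beside 0.297% and 0.302% of all genes. Below 0 were 18 log2 differences, beside 8154 of 18193 for all genes, and the median was -0.15. At an unadjusted p below 0.05, 2 were higher and 11 lower, beside 4.86% and 4.33% of all genes. Ifngr1, a chain of the interferon gamma receptor, read 624 and 791 in CMP and 1729 and 1655 in GMP (log2 difference 1.27 ± 0.19, adjusted p = 0.0277). Il1r1, the interleukin 1 receptor, read 1849 and 1483 against 464 and 540.3 (log2 difference -1.73 ± 0.23, adjusted p = 0.0182), and the other that fell was Flt3. Csf2ra, the GM-CSF receptor chain, read 144 and 130.4 against 532 and 310.3 and did not pass (log2 difference 1.57 ± 0.34, adjusted p = 0.122). Csf3r, the G-CSF receptor, read 203 and 103 against 212 and 269.5 (log2 difference 0.73 ± 0.32, adjusted p = 0.603). Csf1r, the M-CSF receptor, read 2242 and 1062 against 1449 and 1588, and its CMP arrays enclosed the GMP arrays (log2 difference -0.02 ± 0.75, adjusted p = 1). Ifngr1 did not pass without any of the 4 arrays, a KO GMP or a replated array (0.0522 to 0.125), and Il1r1 without any of the 4 arrays (0.0646 to 0.0941).

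The transcription factors of the granulocyte and macrophage line gave 0 calls among 28 measured (limma), beside 0.297% and 0.302% of all genes. Their median log2 difference was 0.00. At an unadjusted p below 0.05, 4 were higher and 4 lower, each 14.3%, beside 4.86% and 4.33% of all genes. Cebpa, which is needed to form GMP, read 6812 and 6867 in CMP and 6962 and 6989 in GMP (log2 difference 0.03 ± 0.14, adjusted p = 0.998), a difference below its error, and 4448 and 4398 in LSK. Gfi1, a repressor that favours granulocytes, read 378 and 343 against 1432 and 971 (log2 difference 1.71 ± 0.46, adjusted p = 0.237). Spi1, the gene of PU.1, read 282 and 205 against 341 and 358 (log2 difference 0.54 ± 0.18, adjusted p = 0.41). Irf8, which favours monocytes and dendritic cells, read 2572 and 2672 against 2244 and 1958 (log2 difference -0.32 ± 0.20, adjusted p = 0.778). Klf4 (147 and 188 in CMP and 359.6 and 548 in GMP), Cebpb (171 and 231.7 against 455 and 511) and Cebpd (253 and 187 against 423 and 465) had log2 differences of 1.42, 1.28 and 1.03. Runx1 read 4689 and 4755 against 3619 and 3509.7 (log2 difference -0.41 ± 0.12, adjusted p = 0.295). In the probe sets read for these genes the populations did not overlap, which also holds for 43.3% of all genes, and none passed. Another, dimmer probe set of Irf8 did overlap (750 and 990 against 843 and 984, log2 difference 0.08). The dimmer probe sets of Runx1 ranged from -0.22 to 0.13 on the log2 scale. Some of them overlapped and others did not. Cebpe was not analysed here.

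**Figure D3:**
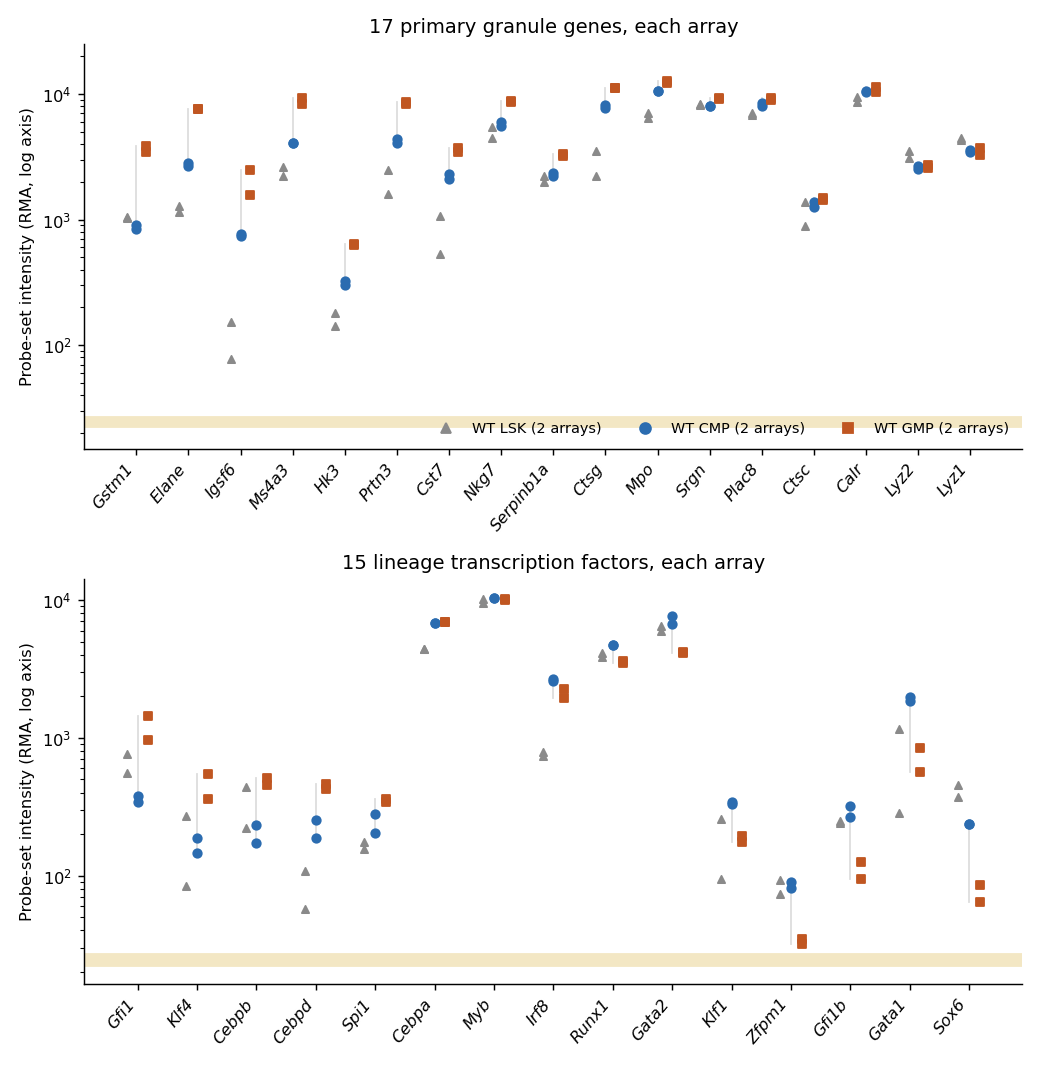
Intensity of each array on a log axis for 17 genes of the primary granule list (top) and 15 lineage transcription factors (bottom). Triangles stand for WT LSK, circles for WT CMP and squares for WT GMP. Genes are ordered by the log2 difference from CMP to GMP, and the band spans the floors of the 4 arrays. Cebpa and Myb lie level between CMP and GMP, and Gata1, Gfi1b and Sox6 lie lower in GMP.

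Of 21 genes of monocytes, macrophages and dendritic cells 0 rose and 1, Flt3, fell, beside 0.297% and 0.302% of all genes. Their median log2 difference was 0.07, and 13 were above 0. By limma 5 were higher and 2 lower at an unadjusted p below 0.05, beside 4.86% and 4.33% of all genes. Ly86 read 2421 and 2473 in CMP and 2499 and 2488 in GMP and Ccr2, the receptor for the chemokine that draws monocytes, 1992 and 2141 against 2109 and 2536. Cx3cr1, the fractalkine receptor, read 127 and 119.7 against 73.7 and 66.9 (log2 difference -0.81 ± 0.25, adjusted p = 0.335). Among 13 chemokine and chemoattractant receptors 0 passed (0 up and 2 down at an unadjusted p below 0.05), and Cxcr2, which draws neutrophils, read 193 and 126 against 82.8 and 69.9. Among 9 genes of MHC class II presentation 0 passed (0 up and 2 down at an unadjusted p below 0.05). H2-Ob, part of a brake on peptide loading, read 895 and 1216 against 466 and 320.4 (log2 difference -1.43 ± 0.30, adjusted p = 0.106), and its partner H2-Oa 450.2 and 501 against 209 and 281. The classical chain H2-Ab1 read 436 and 345 against 251 and 431, with overlap.

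Lists of proliferation and DNA methylation held 0 calls, and at 0.297% and 0.302% of all genes called, lists of this length would hold about none. Their tallies at an unadjusted p are set beside 4.86% of all genes up and 4.33% down. Among 26 DNA replication genes 0 passed (limma, 1 up and 1 down at an unadjusted p below 0.05), among 27 mitosis genes 0 (1 up and 1 down) and among 22 cyclins, kinases and their inhibitors 0 (0 up and 2 down), with median log2 differences of -0.01, -0.09 and -0.12. Of replication genes Cdc45, part of the helicase, read 644 and 575 in CMP and 903 and 868 in GMP, and the polymerase gene Pole 418 and 434 against 289 and 293. Of mitosis genes the spindle protein gene Nusap1 read 2869.8 and 2508 against 2247 and 1977 and the kinase gene Aurkb 1051 and 968 against 1545 and 1321. These 4 had the smallest p of their lists, and their log2 differences were 0.54, -0.55, -0.35 and 0.50. Ccnd3, cyclin D3, differed by -0.77 (646 and 962 against 407 and 527). Ccnd1, cyclin D1, read 1501 and 1552 against 501 and 982 (log2 difference -1.12 ± 0.31, adjusted p = 0.252). Its other, dimmer probe sets overlapped, with log2 differences of 0.01 and -0.46. Mki67, the gene of the Ki-67 antigen, read 1038 and 936 against 826 and 306, with GMP 2 far below GMP 1. Among 15 genes of DNA methylation and its removal 0 passed and 0 had an unadjusted p below 0.05. Tet2 itself read 1225 and 1287 in CMP and 2045 and 1204 in GMP, with overlap (log2 difference 0.32 ± 0.39, adjusted p = 0.94), and Dnmt1, the maintenance methyltransferase, 8746 and 9080.1 against 8032 and 7218. Idh1, which makes the cofactor of TET enzymes, read 5567 and 5585 against 6279 and 6719.9. Dnmt3l, a partner of the methyltransferases that is on no list here and was picked after its values were seen, did pass: it read 20.1 and 18.8 in CMP, below the floor, and 46.9 and 57.4 in GMP, at least 2.13-fold higher (adjusted p = 0.0326), and lost its call without any 1 of the CMP, GMP or replated arrays (0.0528 to 0.184). Of 4 sex-linked genes 0 passed (limma, 1 down at an unadjusted p below 0.05). Xist read 26.6 and 29.7 in CMP and 18.7 and 24.3 in GMP, at or near the floor, unlike the KO arrays described below, and the Y-linked Eif2s3y 1143 and 1112 against 1115 and 1203 and Uty 115 and 101 against 116 and 86.0.

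LSK cells precede CMP, and their levels were set beside those of the called genes. For 54 of the 54 risen genes both LSK arrays lay below both GMP arrays (30.2% of all genes), and for 14 of them both LSK arrays lay above both CMP arrays (17.6% of all genes). Prom1 is one of the 14 (92.4 and 205 in LSK, 52.5 and 29.7 in CMP and 2037 and 2068 in GMP), and so is Vcam1 (127 and 203, 52.4 and 44.1 against 969 and 772). For 54 of the 55 fallen genes both LSK arrays lay above both GMP arrays (18.9% of all genes), and for 38 they lay above both CMP arrays (17.6% of all genes), as in Dntt and Flt3. Selp is among the others (409.7 and 352 in LSK, 554 and 429.9 in CMP and 153 and 86.0 in GMP). These are descriptions, since the genes were chosen by their CMP and GMP values.

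The same step in KO cells was measured on other arrays, which differ from the WT arrays in sex-linked genes. Xist, the RNA of the inactive X chromosome, read 5996 and 6168 on the arrays labelled KO CMP and 4980.1 and 5042 on those labelled KO GMP but was at or near the floor in WT. The Y-linked Eif2s3y read 10.1 and 12.5 in KO CMP and 10.6 and 7.86 in KO GMP, below the floor, and 1143 and 1112 in WT CMP and 1115 and 1203 in WT GMP. So the KO arrays have the pattern of female cells and the WT arrays that of male cells, and genotype and sex cannot be told apart in what follows. Tet2 read 2011 and 1943 on the arrays labelled KO CMP and 2376 and 2228 on those labelled KO GMP, not below the WT arrays, so this probe set gives no check of the deletion, and where it lies against the deleted part was not analysed here. In the arrays labelled KO 92 probe sets were higher and 91 lower in GMP than in CMP, together 0.406% of those tested. Of the 185 probe sets called in WT 93 were called in the same direction in KO, which is 50.3% of the WT calls and 50.8% of the KO calls. The sign was shared by 180 of the 185 and by 57.2% of all probe sets. Of the 109 WT-called genes 109 had the same sign in KO, and 55 passed the adjusted threshold there. The median log2 difference of the risen genes was 2.12 in WT and 1.79 in KO, and that of the fallen genes -1.78 and -1.26. The WT values chose these genes, so the medians make no comparison of the genotypes.

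The difference between the steps was tested directly. For 0 of 45037 probe sets (0%) did the step differ between the arrays labelled KO and WT at an adjusted p below 0.05 (limma interaction, lowest adjusted p = 0.854), while 1800, or 4%, had an unadjusted p below 0.05. Leaving out 1 array gave between 0 and 5 probe sets with a higher and between 0 and 26 with a lower difference in KO. The 5 arose without WT CMP 1 and the 26 without KO CMP 1. In the arrays labelled KO Fscn1 read 131 and 126 in CMP and 52.7 and 231 in GMP (log2 difference -0.22 ± 0.71). Beside it stands a fall of at least 12.4-fold in WT, where both GMP arrays were below the floor. The difference between the steps of Fscn1, which rests on those values below the floor, did not pass (limma interaction, adjusted p = 0.885). Prom1 read 82.4 and 28.9 and 1683 and 1176 in KO (log2 difference 4.85 ± 0.58, adjusted p = 0.0126), Vcam1 differed by 5.02 ± 0.32 and Dntt by -3.30 ± 0.54. A p that misses the threshold does not show that the step was alike in both.

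**Figure D4:**
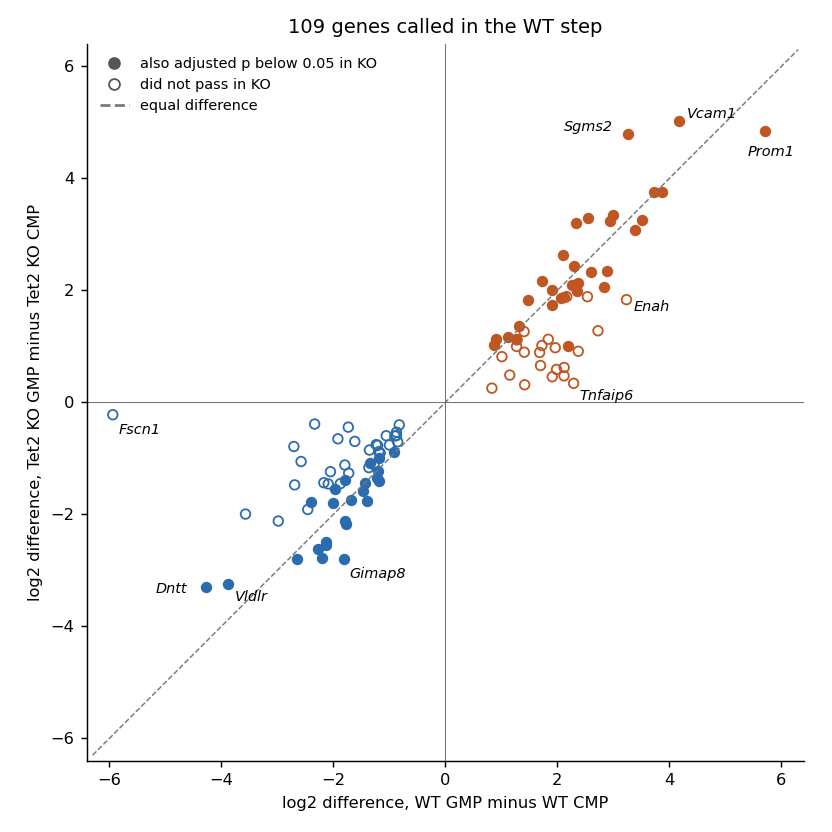
Log2 difference GMP minus CMP in arrays labelled KO (vertical axis) against that in WT (horizontal axis) for the 109 genes called in WT (orange, risen in WT, and blue, fallen), with filled points for the 55 also called in KO and a dashed line of equal difference. All 109 points have the same sign on both axes. Fscn1 lies near 0 on the vertical axis, and its horizontal position rests on values below the floor.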

How the data were processed

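The deposited values are probe-set intensities that the authors made with RMA, per the submitters' processing notes. No source used here gives its version or says if the arrays were normalized in a single run. Here log2 was taken, 64 control probe sets were left out, and 45037 were fitted with limma 3.58.1 in R 4.3.3 (lmFit, eBayes): 1 model with 7 group means over all 14 arrays (7 residual and 2.02 prior degrees of freedom), contrast WT GMP minus WT CMP, two-sided, Benjamini-Hochberg over all probe sets, threshold 0.05. The script was tested on simulated data. Array medians lay between 31.2 and 32.3 on the 4 arrays, whose number limits the precision.

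Probe sets took their gene from GEO's platform annotation: 34945 name 1 gene, 932 several and 9160 none, and 34741 matched RefSeq (GRCm38.p6) by gene identifier, used for names and order only. A gene was read from its probe set of highest 14-array mean. Where both arrays of a group lay below the floor, the fold is a bound: the other group's mean against that floor.

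Named genes were the 12 largest rises and falls among called genes with no overlap, up to 4 per list and direction with the smallest p (2 where none passed), and a fixed set of lineage genes. Others were picked after their values were seen, as were the further members given with the lists. The genes, the 25 lists and the tests were chosen with earlier results of these data known. Alternatives were other sets of arrays, each array left out, a replicate block, quantile normalization or median centring, a variance trend, a pseudocount of 16, a floor filter and other choices of probe set.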

Additional observations from a re-analysis of the deposited data

How the results depend on the processing

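The calls depend on which arrays share the estimate of spread. With the 4 arrays alone, or the 6 WT arrays, 0 probe sets and 0 genes passed in either direction. With the 12 arrays of sorted cells 49 probe sets were higher and 58 lower (25 and 30 genes). With the 8 CMP and GMP arrays, an alternative chosen after seeing the data, 40 and 13 probe sets (23 and 6 genes) passed. The mean of all probe sets of a gene gave 96 higher genes, a variance trend 85 lower genes, and a fit on 1 probe set per gene 84 lower genes. Leaving out 1 array in turn gave 26 to 113 higher and 23 to 112 lower probe sets, 17 to 60 higher and 13 to 64 lower genes, and 0 to 5 and 0 to 26 probe sets whose step was higher or lower in KO. The cause of these changes beyond the smaller number of arrays was not tested. Quantile normalization, median centring, the pseudocount of 16, the floor filter and a minimum log2 difference of 1 kept each count within 1.5 times.

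Same-numbered WT CMP and WT GMP arrays deviated from their group means with a correlation of 0.06 across 22156 probe sets, so the numbers were not taken to pair the samples. With the replicate block 65 probe sets were higher and 86 lower, and 37 and 45 genes. Of the 84 named genes 40 were called and 10 of these passed without each of the 14 arrays. Of the 44 not called, 7 passed under at least 1 alternative. A reversal was counted only where the main fit or the alternative passed, and 0 of the 84 reversed in that sense. Changes of sign between fits that did not pass were not counted. Below the floor only bounds can be given.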
